A study of Homo sapiens with 6 samples.

Results

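The 8 transcription factor genes PHOX2A, HAND1, HAND2, GATA2, GATA3, ISL1, TBX2 and TFAP2B, which mark the adrenergic state of neuroblastoma, were followed in single-cell RNA-seq of SK-N-BE(2)-C cells, an established human neuroblastoma line. They were chosen by symbol as members of the transcription factor circuit of that state, and all 8 were present among the 36601 genes of the count matrices and among the 16763 genes tested. Under TSA (trichostatin A, which blocks the catalytic site of histone deacetylases, HDACs) TFAP2B, TBX2, PHOX2A and HAND1 fell by 3.45-fold to 24.6-fold. The other 4 (GATA2, GATA3, HAND2 and ISL1) did not pass the test, and 29.7% of all genes tested passed it under TSA. Under E6R, a compound known here only by its code name in a series on non-enzymatic inhibition of the HDAC complex, none of the 8 passed the test against DMSO. None of the 16763 genes tested passed it either (0%).

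Cells were captured with Seq-Well S3, a microwell method that pairs each cell with a barcoded bead and counts unique molecular identifiers (UMIs). The 6 libraries formed 3 groups of 2, all of the same cell line: DMSO (the solvent control), TSA and E6R. Doses, treatment times, the structure of E6R and whether the 2 libraries of a group came from separate cultures are not given by the labels, so p-values measure only the spread between these libraries, which may be technical. Each treatment was applied to 1 line, with no other neuroblastoma line beside it. Differences between TSA and E6R cannot be told apart from differences in dose or time.

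Adrenergic neuroblastoma cells resemble the sympathetic neuroblasts of the neural crest, and their identity is held by a small circuit of transcription factors that bind their own and each other's enhancers. PHOX2A is a homeodomain protein of the noradrenergic lineage that activates genes of noradrenaline synthesis. HAND1 and HAND2 are basic helix-loop-helix factors of sympathetic neurons and heart, GATA2 and GATA3 are zinc-finger factors that act in sympathetic and blood lineages, and ISL1 is a LIM-homeodomain factor of sympathetic, sensory and motor neurons. TBX2 is a T-box factor that often acts as a repressor, and TFAP2B is an AP-2 factor of neural crest derivatives. Histone deacetylases remove acetyl groups from histone tails as subunits of corepressor complexes, and strongly acetylated enhancers are a hallmark of these circuit genes.

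The 6 libraries held 17589 cells, between 1861 and 3946 each, and between 4206366 and 26180262 UMIs in those cells. E6R replicate 2 stood apart, since its 5% of cells richest in UMIs held 55.5% of its UMIs, against 22.1% to 36.9% in the other 5 libraries. Mitochondrial genes took 5.83% and 6.20% of UMIs under DMSO, 6.08% and 9.71% under TSA, and 1.55% and 1.51% under E6R. All 10 markers of neuroblastoma were detected in every library, at a summed 3900 to 4410 CPM (UMIs per 1000000 UMIs of the library) under DMSO, 3590 to 3910 under TSA and 3970 to 6660 under E6R. These sums hide single markers. ELAVL4 had 84.6 and 118 CPM under DMSO and 14.1 and 10.3 under TSA. TH had 34 and 84.9 against 22 and 12.3, and PHOX2A 80.8 and 68 against 13.2 and 11.3. CHGA had 1860 and 718 CPM under DMSO and 1760 and 1810 under TSA. None of the 10 had both TSA libraries above both DMSO libraries. PHOX2A and HAND2 are also among the transcription factors followed here, so the sums partly reuse those genes. The 5 Schwann cell markers summed to 4.58 to 16.6 CPM over the 6 libraries, with SOX10, their defining gene, at 0 UMIs in 4 of them. The 6 immune markers summed to 8.56 to 12.5 CPM. The 6 fibroblast markers ranged from 27.7 to 160 CPM under DMSO, 79.4 to 152 under TSA and 28.5 to 326 under E6R, and the 4 endothelial markers from 5.01 to 55.6, 4.05 to 10.6 and 1.91 to 66.0. For fibroblast and endothelial markers alike, replicate 1 had the higher sum in each group. The 5 epithelial markers, most of them keratins, summed to 94.5 to 101 CPM under DMSO, 21.8 to 36.8 under TSA and 106 to 114 under E6R. The part of these markers in the results was not tested. Pairs of libraries shared 11 to 58 cell barcodes, which was 0.351% to 2.11% of the smaller library.

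Upstream sequence is shown for 5 of the 8 genes, 3 that fell under TSA and 2 that did not pass the test, as a description of the DNA at their starts. The windows are the 250 bases before the RefSeq start (GRCh38.p14) on the gene's strand, stopped where an exon of a coding gene begins, and capitals mark matches to 6 short motifs searched on both strands. For GATA factors the letters searched were AGATAA and, separately, TGATAA. For HAND factors they were the E-box CATCTG, and for homeodomain factors the core TAATT. The AP-2 letters were GCCNNNGGC. The T-box letters were AGGTGT. The core TAATT can share bases with AGATAA on the opposite strand, as it does in the HAND2 window. A match is a description of the letters and not a binding site.
PHOX2A, chr11:72244177-72244426, minus strand: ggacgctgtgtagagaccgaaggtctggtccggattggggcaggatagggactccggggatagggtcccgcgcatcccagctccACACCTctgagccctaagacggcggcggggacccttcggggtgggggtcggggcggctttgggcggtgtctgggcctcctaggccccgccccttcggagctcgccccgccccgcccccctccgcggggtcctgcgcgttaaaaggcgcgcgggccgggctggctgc
HAND1, chr5:154478265-154478477, minus strand: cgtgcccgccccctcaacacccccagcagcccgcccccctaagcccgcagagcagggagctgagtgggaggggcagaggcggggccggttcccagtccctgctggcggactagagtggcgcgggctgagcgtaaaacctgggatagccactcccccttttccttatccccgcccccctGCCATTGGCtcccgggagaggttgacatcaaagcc
TFAP2B, chr6:50818621-50818722, plus strand: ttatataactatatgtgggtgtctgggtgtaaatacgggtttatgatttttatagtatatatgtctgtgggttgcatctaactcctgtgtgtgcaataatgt
HAND2, chr4:173530230-173530479, minus strand: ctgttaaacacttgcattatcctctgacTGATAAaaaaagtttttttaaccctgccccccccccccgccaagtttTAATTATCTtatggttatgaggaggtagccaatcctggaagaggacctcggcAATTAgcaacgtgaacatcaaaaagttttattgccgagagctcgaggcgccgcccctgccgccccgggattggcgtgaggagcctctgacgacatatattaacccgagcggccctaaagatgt
ISL1, chr5:51383198-51383390, plus strand: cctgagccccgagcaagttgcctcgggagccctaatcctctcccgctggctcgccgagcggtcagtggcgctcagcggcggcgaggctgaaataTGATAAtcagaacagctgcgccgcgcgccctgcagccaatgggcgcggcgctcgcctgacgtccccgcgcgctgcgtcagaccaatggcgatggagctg

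The PHOX2A stretch, which is 73.2% G and C and lies inside the longer GENCODE 29 gene, held 1 match to the T-box letters, on the minus strand 166 to 161 bases before the start. The HAND1 stretch held 1 match to the AP-2 letters, 72 to 64 bases before the start. The HAND2 stretch (49.6% G and C) held TGATAA at 222 to 217, AGATAA on the minus strand at 172 to 167, and 3 matches to TAATT. The TAATT matches at 175 to 171 and at 174 to 170 are TAATTA read on both strands. ISL1 had TGATAA at 156 to 151 and AGATAA at 31 to 26, the second outside the stretch printed. The TFAP2B stretch, 34.3% G and C, held none of the 6 motifs, and its window had 1 match to TAATT, at 43 to 39, outside the stretch printed. Windows of GATA2 and GATA3, which also did not pass the test, are not printed. There were 2 for GATA2 and 6 for GATA3, against 1 for each gene printed, and a match in any window counts here. GATA2 and GATA3 had matches to the AP-2 letters, as HAND1 did, and GATA3 also to the T-box letters. The shares of windows given next are per single window. Neither had a match to the GATA letters that HAND2 and ISL1 held. Among 35116 RefSeq windows of the same 250 bases, 9.17% held AGATAA, 6.66% TGATAA, 12.2% CATCTG, 23.1% TAATT, 19.8% GCCNNNGGC and 9.57% AGGTGT, and the median window was 58% G and C. Each motif was thus present in 6.66% to 23.1% of all windows of this length.

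Against DMSO, 4 of the 8 genes passed edgeR's quasi-likelihood test under TSA at an adjusted p under 0.05, all lower. Over all genes tested, 29.7% passed in either direction, 16.2% higher and 13.5% lower. Scaled by total counts only, the calls over all genes split into 1717 higher and 3361 lower, against 2720 higher and 2255 lower with TMM scaling, and the median log2 fold change of all genes was -0.32 against -0.01. Log2 fold changes below are relative to the TMM-scaled median unless another scaling is named. Shares of cells and factors per cell are not TMM scaled. The median log2 fold change of the 8 genes was -1.17.

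**Figure D1:**
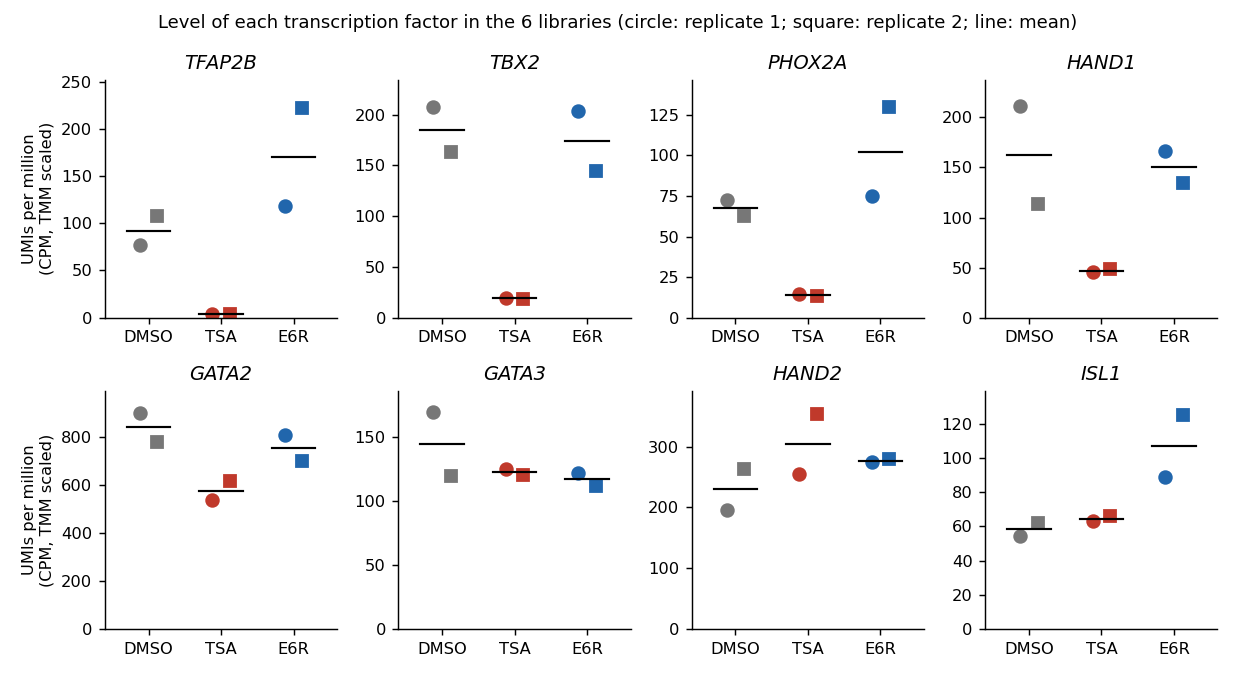
Level of each of the 8 transcription factors in the 6 libraries, in CPM (TMM scaled, linear axis from 0 in each panel); circles are replicate 1, squares replicate 2 and lines the mean of the 2 libraries. In the upper row (TFAP2B, TBX2, PHOX2A, HAND1) both TSA libraries lie far below the other 4, and in the lower row the TSA and DMSO libraries lie closer together or overlap.

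TFAP2B, an AP-2 factor encoded at chr6:50818723-50847613 on the plus strand (GENCODE 29, GRCh38), had the largest fall of the 8. It stood at 76.9 and 107.9 CPM in the DMSO libraries, 3.49 and 4.01 under TSA, and 118.9 and 222.8 under E6R. Both TSA libraries were far below the other 4. The mean went from 92.4 ± 21.9 (SD, n = 2) to 3.75 ± 0.361 CPM (SD, n = 2), at -4.62 on the log2 scale (SE 0.38, 95% interval -5.5 to -3.75, adjusted p = 0.000647). The TSA values rested on 46 UMIs in each library, against 362 and 564 under DMSO.

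TBX2, the T-box factor at chr17:61399896-61409466 on the plus strand, measured 207.6 and 162.9 CPM under DMSO, 19.6 and 18.6 under TSA, and 203.8 and 144.6 under E6R. The TSA libraries lay well apart from the others, while the E6R and DMSO libraries overlapped. From 185 ± 31.6 to 19.1 ± 0.683 CPM (SD, n = 2 each), its log2 fold change under TSA was -3.28 (SE 0.25, 95% interval -3.86 to -2.69, adjusted p = 0.000543), or 9.68-fold.

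PHOX2A, the noradrenergic homeodomain factor at chr11:72239077-72245664 on the minus strand, had 72.2 and 62.4 CPM under DMSO, 14.4 and 13.2 under TSA, and 74.9 and 130 under E6R. Again both TSA libraries were the lowest, and E6R replicate 2 was the highest. The group means were 67.3 ± 6.99, 13.8 ± 0.856 and 102 ± 39.0 CPM (SD, n = 2 each). PHOX2A fell 4.89-fold under TSA, at -2.29 on the log2 scale (SE 0.29, 95% interval -2.96 to -1.61, adjusted p = 0.00199).

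HAND1, the basic helix-loop-helix factor at chr5:154474972-154478264 on the minus strand, gave 211.8 and 113.2 CPM under DMSO, 45.9 and 48.2 under TSA, and 166.6 and 134.2 under E6R. The 2 DMSO libraries differed from each other more than the 2 E6R libraries did, and both exceeded the TSA libraries. The log2 fold change under TSA was -1.79 (SE 0.30, 95% interval -2.49 to -1.09, adjusted p = 0.00513), or 3.45-fold, from 162 ± 69.7 to 47.0 ± 1.60 CPM (SD, n = 2 each). This call was lost without TSA replicate 1 (adjusted p = 0.0525) and without TSA replicate 2 (adjusted p = 0.0534), while the fold changes stayed at -1.73 and -1.78. Without DMSO replicate 1 the change was -1.23, with an adjusted p of 0.0249.

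HAND2, the close relative of HAND1 at chr4:173524969-173530229 on the minus strand, did not follow it. It had 196.5 and 263 CPM under DMSO, 254.7 and 354.5 under TSA, and 274 and 278.8 under E6R. The TSA and DMSO libraries overlapped, and the log2 fold change was 0.41 (SE 0.24, 95% interval -0.14 to 0.96, adjusted p = 0.228). The interval leaves out a fall as large as that of HAND1 under TSA. Within a library, where no scaling enters, there were 0.928 and 2.32 HAND2 UMIs for each HAND1 UMI under DMSO, 5.55 and 7.36 under TSA, and 1.65 and 2.08 under E6R. Both TSA ratios exceeded the other 4.

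GATA2, a zinc-finger factor at chr3:128479427-128493185 on the minus strand, had 897.8 and 779.5 CPM under DMSO, 535 and 615.7 under TSA, and 807.9 and 699 under E6R. The TSA libraries were lower than the DMSO libraries without overlap, yet GATA2 did not pass, at -0.54 on the log2 scale (SE 0.20, 95% interval -1.02 to -0.07, adjusted p = 0.08). It passed in 5 alternatives, with adjusted p-values of 0.0184 (total-count scaling), 0.043 (only genes of at least 20 CPM), 0.0214 (DESeq2), 0.0492 (thinned library sums) and 0.0462 (thinned cells). GATA3, the related factor at chr10:8045378-8075203 on the plus strand, had 169.5 and 119.7 CPM under DMSO, 124.8 and 120.8 under TSA, and 121.9 and 112.1 under E6R. Its groups overlapped, at a log2 fold change under TSA of -0.24 (SE 0.22, 95% interval -0.73 to 0.26, adjusted p = 0.435), and only DMSO replicate 1 stood above the rest. The ratio of GATA2 to GATA3 UMIs was 5.3 and 6.51 under DMSO, 4.29 and 5.1 under TSA, and 6.62 and 6.24 under E6R. Both TSA ratios were the lowest.

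ISL1, the LIM-homeodomain factor at chr5:51383391-51394738 on the plus strand, measured 54.4 and 62.2 CPM under DMSO, 63.3 and 65.9 under TSA, and 88.7 and 125.3 under E6R. Under TSA its log2 fold change was 0.15 (SE 0.22, 95% interval -0.36 to 0.66, adjusted p = 0.638). By non-overlap of the libraries alone, 5 of the 8 genes were lower under TSA and 1, ISL1, was higher, while 34.6% of all genes tested were lower and 36.7% higher by that measure.

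Under E6R, none of the 8 genes passed edgeR's test against DMSO, and neither did any of the 16763 genes (0%). At an unadjusted p under 0.05, 2 of the 8 (ISL1 and TFAP2B) and 17.4% of all genes stood. DESeq2 called 1 of the 8 (ISL1, adjusted p = 0.043) and 338 genes in all (2.14%). With no filter on low counts edgeR called 2 of the 8, ISL1 (adjusted p = 0.00665) and TFAP2B (adjusted p = 0.00492), and 1095 of 31532 genes (3.47%). The 2 E6R libraries lay above both DMSO libraries for PHOX2A, HAND2, ISL1 and TFAP2B, 4 of 8, against 24.6% of all genes, and below them for none of the 8, against 22.7%.

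**Figure D2:**
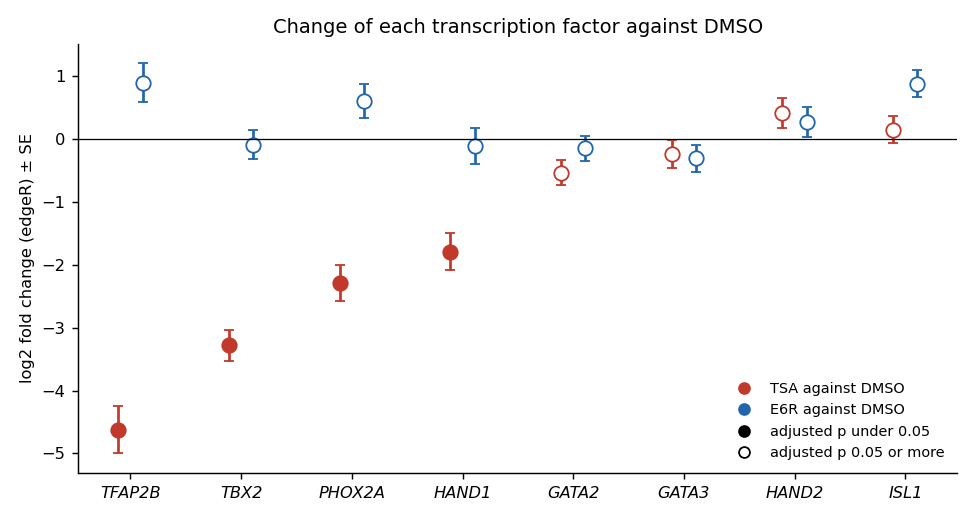
Log2 fold change of each of the 8 transcription factors against DMSO, with bars of 1 standard error (edgeR); red is TSA, blue is E6R, filled circles have an adjusted p under 0.05 and open circles do not. The 4 filled circles are TFAP2B, TBX2, PHOX2A and HAND1 under TSA, from -4.62 to -1.79, and the E6R values lie between -0.31 and 0.89.

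ISL1 and TFAP2B had the largest differences under E6R. For ISL1 the log2 fold change against DMSO was 0.88 (SE 0.22, 95% interval 0.37 to 1.39, adjusted p = 0.205), from 58.3 ± 5.49 to 107 ± 25.9 CPM (SD, n = 2 each). TFAP2B stood at 0.89 (SE 0.31, 95% interval 0.16 to 1.61, adjusted p = 0.23), from 92.4 ± 21.9 to 171 ± 73.5 CPM (SD, n = 2 each). PHOX2A was at 0.61 (SE 0.27, 95% interval -0.03 to 1.24, adjusted p = 0.304). In these 3 genes E6R replicate 2, the library with the most concentrated UMIs, was the highest of the 6. Without it the log2 fold changes were 0.65 for ISL1 (adjusted p = 0.161), 0.4 for TFAP2B (adjusted p = 0.376) and 0.19 for PHOX2A (adjusted p = 0.656), and without E6R replicate 1 they were 1.21, 1.38 and 1.06.

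For the other 5 genes, the log2 fold changes under E6R lay between -0.31 and 0.27. TBX2 stood at -0.09 (95% interval -0.62 to 0.44, adjusted p = 0.869) and HAND1 at -0.11 (-0.79 to 0.57, adjusted p = 0.871). GATA2 gave -0.15 (-0.63 to 0.32, adjusted p = 0.731), GATA3 -0.31 (-0.8 to 0.19, adjusted p = 0.497) and HAND2 0.27 (-0.28 to 0.82, adjusted p = 0.594). These intervals leave out, for TBX2 and HAND1, a fall of the size seen under TSA. They do not show that the levels were the same as under DMSO.

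Between the 2 compounds, 5 of the 8 genes were higher under E6R than under TSA at an adjusted p under 0.05 and none was lower, while 38.2% of all genes passed, 18.7% higher and 19.5% lower. The comparison shares its TSA libraries with the test of TSA against DMSO. TFAP2B differed by 5.51 (log2, SE 0.39, 95% interval 4.61 to 6.41, adjusted p = 0.000232), or 45.5-fold, and TBX2 by 3.19 (SE 0.25, adjusted p = 0.000323). PHOX2A differed by 2.90 (SE 0.30, adjusted p = 0.000549) and HAND1 by 1.68 (SE 0.30, adjusted p = 0.00423). The difference of ISL1 was 0.73 (SE 0.22, 95% interval 0.22 to 1.23, adjusted p = 0.0319). This last call was lost without TSA replicate 1 (adjusted p = 0.156), without TSA replicate 2 (0.145) or without E6R replicate 2, where the difference was 0.48 (adjusted p = 0.134). It was also lost when the 5% of cells richest in UMIs were left out (0.62, adjusted p = 0.0565) or cells were thinned to 1000 UMIs (0.46, adjusted p = 0.15). For GATA2 the difference was 0.39 (adjusted p = 0.167), for HAND2 -0.14 (adjusted p = 0.665) and for GATA3 -0.07 (adjusted p = 0.817). The 2 E6R libraries lay above both TSA libraries for 6 of the 8, those 5 and GATA2, and 33.7% of all genes did so.

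Single cells were compared at a common depth of 1000 UMIs, which kept 11937 cells, between 1187 and 2789 per library. This depth is a total count without TMM scaling, so the TSA shares are not corrected for the lower median gene under total counts. The share of cells with a TFAP2B UMI was 7.08% and 11% under DMSO, 0.702% and 0.143% under TSA, and 9.73% and 17.0% under E6R. The TSA shares came from 13 of 1852 cells (exact Clopper-Pearson 95% interval 0.374% to 1.2%) and 4 of 2789 cells (0.0391% to 0.367%); such intervals cover counting error only. Before thinning, the TFAP2B shares were 13.7% and 14.8%, 1.66% and 1.22%, and 27.2% and 32.8%. So at either depth few TSA cells had a TFAP2B UMI.

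TBX2 was seen at 1000 UMIs in 18.5% and 15.4% of DMSO cells, 1.73% and 1.58% of TSA cells, and 18.1% and 13.2% of E6R cells. For PHOX2A the shares were 7.92% and 6.24%, 1.46% and 0.968%, and 6.69% and 9.83%. For HAND1 they were 16.4% and 11.4%, 3.83% and 4.09%, and 13.3% and 10.7%. In these 3 genes, as in TFAP2B, the TSA libraries were the lowest and the E6R and DMSO libraries overlapped.

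GATA2 was found in 57.0% and 54.2% of DMSO cells, 30.2% and 34.99% of TSA cells, and 49.7% and 50.2% of E6R cells. The GATA2 groups did not overlap in any of the 3 comparisons. GATA3 shares were 14.2% and 12.2%, 9.83% and 8.68%, and 10.96% and 11%. They too did not overlap in any of the 3 comparisons, whereas the TMM-scaled CPM of GATA3 overlapped in each. The TMM-scaled CPM of GATA2 overlapped between E6R and DMSO. Non-overlap of shares was not counted over all genes. By TMM-scaled CPM, 34.6% of all genes were lower and 36.7% higher under TSA than DMSO without overlap. Under E6R 22.7% were lower and 24.6% higher than DMSO by that measure. HAND2 shares were 17.9% and 22.9% under DMSO, 19.0% and 23.4% under TSA, and 24.4% and 24.2% under E6R, so the TSA and DMSO libraries overlapped. ISL1 was found in 5.73% and 5.83% of DMSO cells, 6.32% and 5.02% of TSA cells, and 7.59% and 10.5% of E6R cells. A 2-sided exact permutation test over libraries, with 2 against 2, cannot go below p = 0.33, which was the value for every non-overlapping pair of groups among the 27 tests of shares and of factors per cell.

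**Figure D3:**
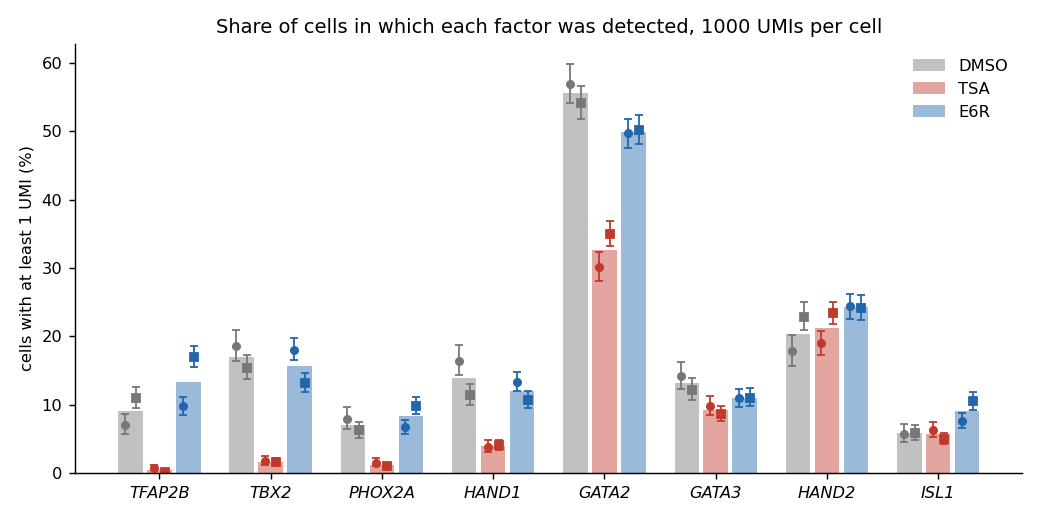
Share of cells with at least 1 UMI of each of the 8 transcription factors after thinning each cell to 1000 UMIs; bars are the mean of 2 libraries, circles and squares replicates 1 and 2, and whiskers exact 95% binomial intervals, which cover counting error only. TFAP2B, TBX2, PHOX2A and HAND1 are each in under 5% of TSA cells, and HAND2 and ISL1 shares overlap between TSA and DMSO.

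The sample held 1 labelled cell type, so no cells that should lack these genes were at hand to measure free RNA. In its place, barcodes of under 300 genes were set beside the cells of their library. For 46 of the 48 values (8 genes in 6 libraries) the genes' CPM in these small barcodes was 0.485 to 1.35 times that in the cells. The exceptions were TFAP2B in the 2 TSA libraries, at 1.86 and 1.91 times. The part of free RNA in the low TFAP2B shares under TSA was not tested.

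Counted together, a cell thinned to 1000 UMIs held a UMI of 1.42 ± 0.0396 of the 8 factors under DMSO, 0.759 ± 0.0414 under TSA and 1.44 ± 0.0438 under E6R (SD, n = 2 libraries each). The exact permutation p was 0.33 for TSA against DMSO and 0.667 for E6R against DMSO. GATA2, which did not pass edgeR's test, had the largest part in the lower TSA count. Its mean share of cells differed from DMSO by -22.97 percentage points. TBX2 differed by -15.31, HAND1 by -9.934, TFAP2B by -8.616, PHOX2A by -5.868 and GATA3 by -3.918. The differences of ISL1 and HAND2 were -0.109 and 0.79. No such count of other genes was set beside that of the 8. Cells in which none of the 8 was detected made up 19.9% and 18.4% of the DMSO libraries, 46.8% and 41.9% of the TSA libraries, and 20.5% and 17.8% of the E6R libraries. Cells with 4 or more of the 8 made up 2.93% of DMSO cells, 0.359% of TSA cells and 3.30% of E6R cells, as means of 2 libraries. Not detecting a factor at this depth does not show that the cell lacked it. Without thinning, the means were 1.94, 1.66 and 2.82 factors per cell, at median depths of 1054 to 1880 UMIs per cell over the libraries.

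**Figure D4:**
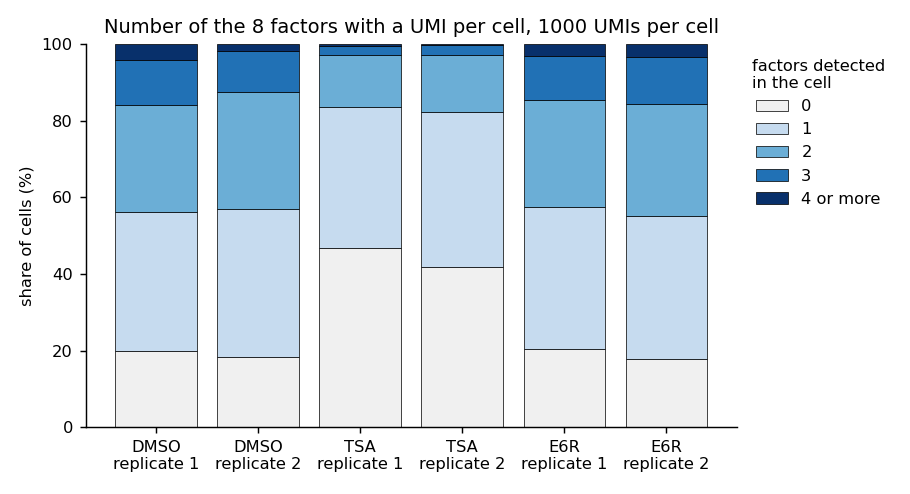
Share of cells by the number of the 8 transcription factors with a UMI, per library, in cells thinned to 1000 UMIs; darker fill is more factors. In the 2 TSA libraries the lowest segment, cells with none detected, reaches 46.8% and 41.9%, against 17.8% to 20.5% in the other 4 libraries.

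Several of the 8 genes have an antisense transcript or close neighbour, and the labels do not give the strand rule of the counting. It is thus not known whether reads in a stretch shared by a gene and its antisense partner were told apart. HAND2-AS1 (chr4:173527270-173659696, plus strand), an antisense RNA that overlaps HAND2, had 290 and 231 CPM under DMSO, 93.7 and 86.9 under TSA, and 275 and 274 under E6R. It fell under TSA to -1.53 on the log2 scale (SE 0.20, adjusted p = 0.00216), in the libraries where HAND2 itself was at 0.41 and did not pass. The HAND2-AS1 to HAND2 UMI ratio was 1.47 and 0.877 under DMSO, 0.368 and 0.245 under TSA, and 1.0 and 0.982 under E6R. Both TSA ratios were the lowest.

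TBX2-AS1 (chr17:61393456-61411555, minus strand), which overlaps TBX2, had 62.5 and 57.4 CPM under DMSO, 9.19 and 7.92 under TSA, and 72.4 and 77.4 under E6R. Like TBX2 it fell under TSA, at -2.8 on the log2 scale (SE 0.21, adjusted p = 0.000541). INPPL1, an inositol phosphatase gene that overlaps the 3′ end of PHOX2A on the opposite strand, also fell (-1.57, SE 0.24, adjusted p = 0.00347), from 51.8 and 46.1 CPM to 16.3 and 16.6. AC010478.1, an antisense transcript that starts 59 bases from the start of ISL1, rose under TSA (1.21, SE 0.33, adjusted p = 0.0283), a call lost when any 1 of the 4 TSA or DMSO libraries was left out. GATA2-AS1 stood at -0.16 (adjusted p = 0.65) and GATA3-AS1 at -0.3 (adjusted p = 0.421). AC005746.2, which overlaps the start of TBX2 with 3 to 32 UMIs per library, was at -1.64 (adjusted p = 0.129), and AL390294.1 inside GATA3 had too few UMIs to be tested. Against DMSO under E6R, none of these 7 tested genes passed, with HAND2-AS1 at 0.08 (adjusted p = 0.868) and TBX2-AS1 at 0.32 (adjusted p = 0.426).

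The wider program was described with 5 lists by counts, with no test of a list. Of 20 other transcription factors of the adrenergic state or sympathoadrenal development, 18 were tested. Under TSA 9 fell and 1 rose, with a median log2 fold change of -0.99. TLX2, a homeobox factor of neural crest derived neurons, went from 124 ± 2.02 to 13.5 ± 0.842 CPM (SD, n = 2 each; log2 fold change -3.2, adjusted p = 0.000489). SIX3, a homeobox factor of forebrain and eye, fell (-1.92, adjusted p = 0.00881) and EYA1, a transcriptional coactivator and phosphatase, rose (1, adjusted p = 0.0186). SIX3 lost its call without DMSO replicate 1 (adjusted p = 0.0564) or either TSA replicate (0.0803 and 0.0568), and EYA1 without either DMSO replicate (0.104 and 0.0643) or TSA replicate 2 (0.135). The list's calls under TSA dropped to 5 without DMSO replicate 1 or TSA replicate 1 and to 3 without TSA replicate 2. The share of all genes called moved in the same settings, from 29.7% to 14%, 9.84% and 7.79%.

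Cofactors that bind these factors or share their complexes were followed in 14 genes, all of them tested. Under TSA 2 fell and 3 rose, with a median of -0.06. TCF4, an E protein that pairs with HAND factors, fell from 365 ± 53.0 to 89.5 ± 1.02 CPM (SD, n = 2 each; -2.03, adjusted p = 0.00101). LDB1, which bridges LIM-domain and GATA complexes, fell (-0.83, adjusted p = 0.0232), while SSBP2 (1.05, adjusted p = 0.0376) and SSBP3 (0.72, adjusted p = 0.0357), which bind LDB1, rose. These last 3 calls were each lost without either TSA replicate, for LDB1 and SSBP3 also without either DMSO replicate, and for SSBP2 without DMSO replicate 2. Scaled by total counts only, the rises of EYA1, SSBP2 and SSBP3 no longer passed (adjusted p = 0.0593, 0.119 and 0.184). The list's calls dropped to 3 without DMSO replicate 1, to 2 without DMSO replicate 2 and to 1 without either TSA replicate, settings in which 14%, 15%, 9.84% and 7.79% of all genes passed.

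Of 17 noradrenergic genes downstream of these factors, all were tested, and under TSA 6 fell and 1 rose, with a median of -1.48. The 1 that rose was SNAI1, a zinc-finger repressor of epithelial genes that is known from mesenchymal transitions and is not part of noradrenaline synthesis, storage or uptake. It measured 2.34 and 0.765 CPM under DMSO and 22.4 and 21.5 under TSA (3.84, adjusted p = 0.00302), and is named after its values were seen, since its mean lies under the 20 CPM of the naming rule. SLC6A2, the noradrenaline transporter, had 225.6 and 555 CPM under DMSO and 5.24 and 5.57 under TSA (-6.17, adjusted p = 0.00135). CYB561, the electron carrier of secretory vesicles, fell from 1178 ± 268 to 33.6 ± 5.08 CPM (-5.13, adjusted p = 0.000732), and CHRNA3, a nicotinic receptor subunit of ganglia, from 304 ± 76.1 to 12.6 ± 0.451 CPM (-4.59, adjusted p = 0.000489). All 3 passed in each of the 20 alternatives. TH and DBH, which encode enzymes of noradrenaline synthesis, did not pass. DBH had 194 and 724.5 CPM under DMSO and 161.6 and 157.5 under TSA (-1.53, adjusted p = 0.166). DDC, which encodes another enzyme of that synthesis, fell (-1.55, adjusted p = 0.00287) and passed in each of the 20 alternatives. With the replicate number as a block, which the labels do not tie to a shared culture, 11 of the 17 passed, beside 36.1% of all genes, and with no low-count filter 13 of the 17, beside 18.7%.

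Of 23 transcription factors of the mesenchymal state, the other main state of neuroblastoma cells, 18 were tested, and under TSA 2 rose and none fell, with a median of -0.11. SNAI1, counted among the noradrenergic genes above, was not one of the 23. JUNB, an AP-1 subunit, went from 30.8 ± 7.55 to 72.5 ± 1.62 CPM (1.24, adjusted p = 0.021), and lost its call without DMSO replicate 2 (0.15) or either TSA replicate (0.101 and 0.0972), and with total-count scaling (0.0566). Without DMSO replicate 2 or either TSA replicate 0 of this list passed, and 15%, 9.84% and 7.79% of all genes did. Without E6R replicate 1 or 2 there were 4 calls in the list, beside 33% and 33.6% of all genes. Of 12 relatives of the 8 genes, 4 were tested and 1 rose (25%, beside 29.7% of all genes). TBX3, a relative of TBX2 counted among the other adrenergic factors, was not one of the 12. It fell under TSA (-1.07, adjusted p = 0.00518), and without TSA replicate 2 its log2 fold change was -0.97. Thus the share of genes called under TSA was 50% for the 8 factors, 55.6% for the other adrenergic factors, 35.7% for the cofactors, 41.2% for the noradrenergic genes and 11.1% for the mesenchymal factors, beside 29.7% of all genes. These shares were not matched for level. In a fit of only genes of at least 20 CPM, which all 8 factors reached, 42.5% of all genes passed, and GATA2 passed as well. Most of the tested mesenchymal factors had a mean under 20 CPM.

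**Figure D5:**
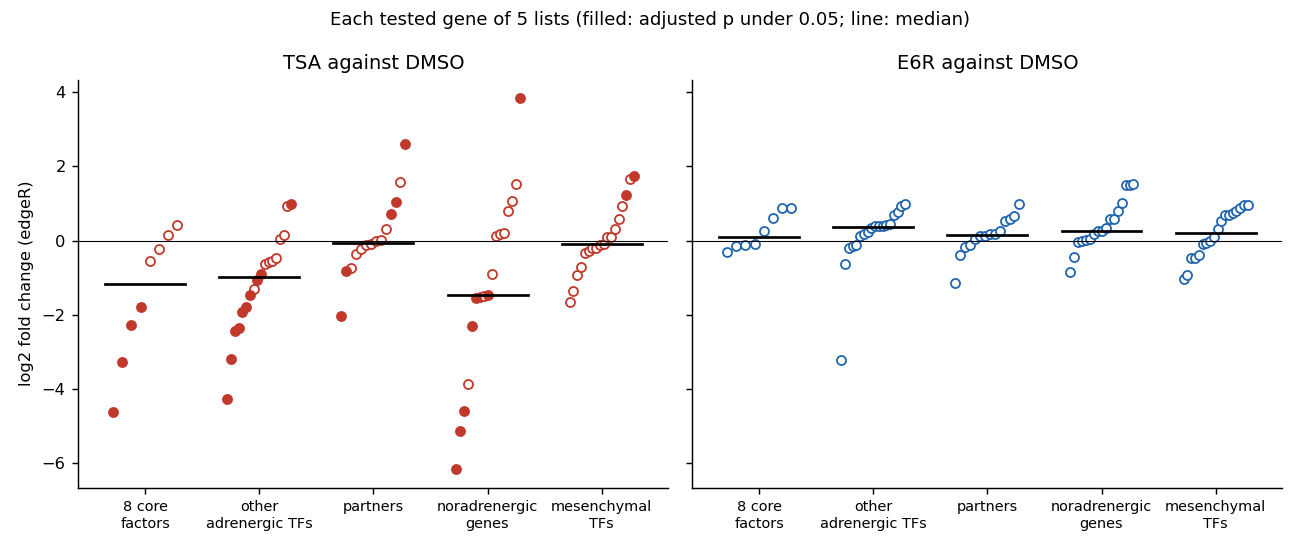
Log2 fold change against DMSO of every tested gene of the 8 factors and 4 lists, TSA left and E6R right; filled circles have an adjusted p under 0.05 and lines are medians. Under TSA the medians of the 8 factors, the other adrenergic factors and the noradrenergic genes are -1.17, -0.99 and -1.48, and under E6R no gene is filled.

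Under E6R none of the genes of these lists passed against DMSO, and the medians were 0.09 for the 8 factors, 0.37 for the other adrenergic factors, 0.14 for the cofactors, 0.25 for the noradrenergic genes and 0.2 for the mesenchymal factors, beside 0.03 for all genes. Compared with TSA, 38.2% of all genes were called under E6R, 18.7% higher and 19.5% lower. E6R had 11 of 18 other adrenergic factors higher and 1 lower, and the 3 with the largest rises by the naming rule were TLX2 (3.59, adjusted p = 0.000228), HEY1 (1.92, adjusted p = 0.000533) and TBX3 (1.75, adjusted p = 0.000594). HEY1 is a Notch target and TBX3 the closest relative of TBX2. Without either TSA replicate the list's calls dropped to 6 or 7, and those of all genes to 17.7% and 14.4%. Of the cofactors 4 were higher and 2 lower, among them TCF4 (2.28, adjusted p = 0.000447), TCF12, another E protein (1.28, adjusted p = 0.00606) and LDB1 (0.94, adjusted p = 0.0104), and only 1 passed without TSA replicate 1, a setting in which neither TCF12 nor LDB1 did. Of the noradrenergic genes 7 were higher and 2 lower, led by SLC6A2 (5.73), CYB561 (5.30) and CHRNA3 (4.55), and SNAI1 was 1 of the 2 that were lower (-2.29, adjusted p = 0.00757; 0.0584 and 0.0592 without TSA replicate 1 or 2). Without TSA replicate 2 that list had 5 calls. Of the mesenchymal factors 3 were higher and 2 lower: FOSL2 (1.98, adjusted p = 0.0285) and ID3 (1.16, adjusted p = 0.0118) were higher and JUNB (-1.15, adjusted p = 0.02) was lower among those the naming rule reached. FOSL2 and JUNB lost their calls without either TSA replicate, FOSL2 also without E6R replicate 1 (0.70, adjusted p = 0.115) and JUNB also without E6R replicate 2 (-0.77, adjusted p = 0.056), and ID3 without TSA replicate 2, and without TSA replicate 1 or 2 the list had 1 and 0 calls.

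Over the 6 libraries the patterns of the 8 genes are described by Pearson's r of log2 CPM with no test, since the libraries share their 3 treatments. PHOX2A and TFAP2B had r = 0.99, HAND1 and TBX2 0.97, TBX2 and TFAP2B 0.96, and PHOX2A and TBX2 0.94. HAND2 had negative values with each of the 4 that fell, from -0.62 with HAND1 to -0.37 with TFAP2B. With the same 4 genes, GATA2 had 0.76 to 0.94, ISL1 0.21 to 0.53 and GATA3 0.02 to 0.43. GATA3 and HAND2 had -0.78. Among the 7507 other genes of at least 20 CPM, the 2 most like PHOX2A were AP5M1 (0.9990) and DKC1 (0.9979), and those most like TFAP2B were PLK1 (0.9982) and PCBD1 (0.9981). KCMF1 (0.9996) and PHF2 (0.9983) were most like TBX2, and GNB4 and MBTPS2 (both 0.9937) most like HAND1. For HAND2 the genes were COX7C (0.9943) and MTMR4 (0.9784), and for ISL1 SUPT7L (0.9856) and RFC4 (0.9846). GATA2 was most like ZSCAN29 (0.9939) and SSH1 (0.9826), and GATA3 most like MED16 (0.9587) and BASP1 (0.9563).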

How the data were processed

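The deposited matrices held whole-number UMI counts per gene and barcode, not normalized. Per the submitters' processing notes, STARsolo 2.7.9a and GRCh38 were used; the annotation, strand rule and barcode rule are not given by the labels. Cells were barcodes with 500 or more genes and at most 20% mitochondrial UMIs. No doublet caller was run, and an alternative dropped the 5% of cells richest in UMIs. Since cells are not replicates, the counts of a library were added up over its cells.

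The 6 sums were fitted together in edgeR 4.0.16 (R 4.3.3; TMM scaling, filterByExpr, quasi-likelihood test, Benjamini-Hochberg over 16763 genes, threshold 0.05). CPM values are TMM scaled, except marker sums, the single markers given beside them and small barcodes, which use plain totals. Standard errors come from the F statistic and intervals from the moderated t distribution. DESeq2 1.42.0, other scalings, filters, cell rules, thinning and each library left out were alternatives. The fit was tested on simulated data. Shares were compared by exact permutation.

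The members, lists and tests were chosen with earlier results of these data known. Named list genes were up to 3 rises and 3 falls per list and comparison, of at least 20 CPM with an adjusted p under 0.05. One gene that the rule names is not reported here. DBH, DDC, SNAI1 and the within-library UMI ratios were chosen after their values were seen. Coordinates come from GENCODE 29 and upstream windows from RefSeq (GRCh38.p14), which matched 7 of the 8 members.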

Additional observations from a re-analysis of the deposited data

How the results depend on the processing

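Over 20 alternatives, 3 to 5 of the 8 genes passed under TSA against DMSO, 0 to 2 under E6R against DMSO, and 4 to 6 in E6R against TSA, while 7.79% to 42.5%, 0% to 3.47% and 14.4% to 48.6% of all genes passed. TFAP2B, TBX2 and PHOX2A passed under TSA in each alternative, with adjusted p-values of at most 0.0172, 0.0172 and 0.0316. Under E6R against DMSO the count became 2 with no low-count filter (3.47% of all genes) and 1 with DESeq2 (2.14%). Of 480 member fold changes under the alternatives, 438 kept their direction and side of the threshold, 7 lost and 9 gained a call, and 26 reversed, all from values of at most 0.31 in size. The reversed values under TSA against DMSO were -0.16 (total counts) and -0.03 (thinned library sums) for ISL1, and with 1 library left out GATA3 ranged from -0.54 to 0.08. Under E6R against DMSO they were 0.05 for HAND1, 0.01 for GATA2 and 0.08 for TBX2 with no low-count filter, and 0.1 for HAND1 and 0.06 for TBX2 with all deposited barcodes. With 1 library left out there, HAND1 ranged from -0.45 to 0.54, GATA2 from -0.21 to 0.09, GATA3 from -0.49 to 0.1 and TBX2 from -0.25 to 0.23. For E6R against TSA, HAND2 gave 0.04 (total counts) and 0.11 (no filter), and GATA3 0.11, 0.18, 0 (all barcodes), 0.06 (without the 5% of cells with most UMIs), 0.06 (thinned cells) and 0.02 (without mitochondrial genes, chosen after seeing the data). With 1 library left out, HAND2 ranged from -0.35 to 0.12 and GATA3 from -0.09 to 0.05. The cause was not tested. The mean number of factors per cell followed the depth by construction: at 500 UMIs it was 0.801, 0.409 and 0.815 under DMSO, TSA and E6R, at 2000 UMIs 2.48, 1.34 and 2.46, and without thinning 1.94, 1.66 and 2.82. With at least 1000 genes per cell the TSA mean was 0.817. Among genes of at least 100 CPM, 1 of the 5 members that could be compared kept its most alike gene (COX7C for HAND2). With the replicate number as a block, 4, 0 and 5 of the 8 genes passed in the 3 comparisons and 6047, 19 and 7567 genes in all; same-numbered libraries deviated from their group means with correlations of 0.242, 0.564 and 0.166 over 7515 genes, and the labels do not pair them. Depth limits TFAP2B under TSA, which rested on 46 UMIs in each library.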
